A study of Homo sapiens with 4 samples.

Results

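Basigin, the surface glycoprotein encoded by BSG, was followed together with the lactate carriers and lactate dehydrogenases in KM-H2, an established Hodgkin lymphoma cell line. BSG was selected on its measured rise in the knockdown, and EMB, SLC16A1, SLC16A3, SLC16A7, LDHA and LDHB were joined to it by function. Every probe set that the platform annotation gives to exactly 1 gene, with a symbol among these 7, was taken. That left 5 of 19775 named genes with 11 of the 54613 probe sets of the value table, namely 1 for BSG, 2 for EMB, 5 for SLC16A7, 1 for LDHA and 2 for LDHB. SLC16A1 and SLC16A3, which encode the carriers MCT1 and MCT4, had 0 probe sets annotated to them alone and were not analysed here.

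The series holds 4 single-colour arrays, 2 of cells with a non-silencing control and 2 of cells in which the CIITA-BX648577 fusion transcript was targeted. Both groups are transduced KM-H2 cells. The targeting vector was a lentiviral pGIPZ construct carrying 1 short hairpin against exon sequence of BX648577 within the fusion, so a second hairpin was not compared. The labels call the arrays of a group replicates but do not say whether they came from separate cultures, so the p-values measure only the spread between these arrays. Values are probe set intensities on a linear scale, and n = 2 arrays in each group throughout. Differences subtract the control mean from the knockdown mean of log2(intensity + 16), where the added 16 keeps dim probe sets from dominating and makes their differences smaller.

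Cancer cells that run glycolysis fast turn pyruvate into lactate and must send the lactate out with a proton. LDHA encodes the lactate dehydrogenase subunit that favours the step from pyruvate to lactate, and LDHB the subunit that favours the way back. Lactate crosses the plasma membrane on monocarboxylate carriers of the SLC16 family, which need an immunoglobulin-type partner to reach the surface: basigin escorts MCT1 and MCT4, and its relative embigin, encoded by EMB, escorts MCT2, the product of SLC16A7. Basigin is also known as CD147 or EMMPRIN, an inducer of matrix metalloproteinases and a binding partner of cyclophilins.

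A promoter window each of BSG and LDHA is shown, since both genes were read from bright probe sets, only BSG having been chosen for a rise, and both windows hold the same short motif. RefSeq start sites of GRCh38.p14 were matched by symbol for 4 of the 5 genes with probe sets, giving 7 windows of the 250 bases before a start. The letters CACGTG, a palindrome known as the canonical E-box and read the same on both strands, were searched and are in capitals below. The first sequence is BSG at chr19:572346-572595, plus strand, before the start at 572596, and the second is LDHA at chr11:18394313-18394562, plus strand, before the start at 18394563.
BSG: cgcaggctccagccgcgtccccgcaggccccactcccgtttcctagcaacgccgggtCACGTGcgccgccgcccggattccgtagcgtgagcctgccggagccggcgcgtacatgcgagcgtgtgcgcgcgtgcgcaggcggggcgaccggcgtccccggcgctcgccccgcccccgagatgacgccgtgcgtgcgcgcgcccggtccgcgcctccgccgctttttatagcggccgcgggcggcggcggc
LDHA: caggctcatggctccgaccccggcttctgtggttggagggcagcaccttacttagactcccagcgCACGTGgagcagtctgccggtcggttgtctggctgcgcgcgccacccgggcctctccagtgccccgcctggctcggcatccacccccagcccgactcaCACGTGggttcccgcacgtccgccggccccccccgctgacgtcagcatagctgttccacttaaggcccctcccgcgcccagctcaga
The motif occurred once in the BSG window, with its first base 193 bases before the start, and at 185 and 87 bases before the start in the LDHA window. The other 5 windows, 1 more of BSG, 1 more of LDHA, 2 of SLC16A7 and 1 of LDHB, held none. Of all 35116 windows of this length, 6.34% held it. A match describes the letters only, and BSG and LDHA did not have like values across the arrays.

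In the controls BSG read 99.9 and 94.4, and in the knockdowns 169 and 163. Both knockdown arrays lay above both controls, and the arrays of a group stayed close together. The means were 97.1 ± 3.90 (SD, n = 2) in control and 166 ± 4.28 in knockdown, a ratio of 1.71 and a log2 difference of 0.68. These are the values for which BSG was chosen, so they are given without a test. Of the 27307 probe sets bright enough to be tested, 40 (0.146%) had a larger log2 rise. The replicates of BSG differed by 0.070 in control and 0.048 in knockdown on the log2 scale, against a median of 0.14 and 0.11 over all tested probe sets. Many of those were dimmer, BSG being at the percentile 92.5 of mean signal. Over the 9 tested member probe sets the medians were 0.048 and 0.067. BSG has a single probe set here (208677_s_at), so no second probe set bears on it.

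**Figure D1:**
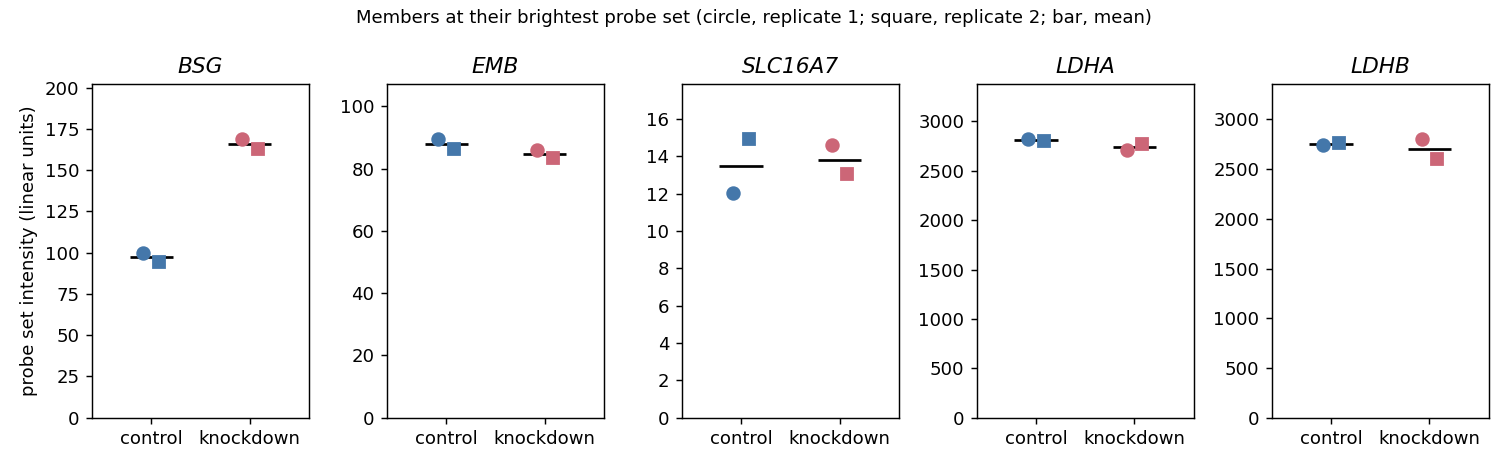
Intensity (linear units, each panel with its own axis from 0) of the 5 genes at their brightest probe set on the 4 arrays, with control in blue, knockdown in red, replicate 1 as a circle, replicate 2 as a square and the mean as a bar. The knockdown points of BSG (169 and 163) lie above both controls (99.9 and 94.4), while the means of the other 4 genes are nearly level between the groups.

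Embigin, the escort of MCT2, did not share this rise. The brighter EMB probe set (226789_at) read 89.4 and 86.3 in control and 86.0 and 83.4 in knockdown. Both knockdown arrays lay just below both controls, with means of 87.9 ± 2.18 and 84.7 ± 1.80, so the knockdown stood at 96.4% of control. Its log2 difference was -0.044 (SE 0.11, 95% interval -0.29 to 0.21), with a limma adjusted p of 0.893. The interval spans folds from 0.816 to 1.15, so a small change in either direction is not excluded. The other EMB probe set was dim, at 12.7 and 2.14 in control and 10.2 and 7.05 in knockdown, and fell below the limit for testing.

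SLC16A7, the carrier MCT2 with high affinity for pyruvate and lactate, was read near the dim end of the arrays. Its brightest probe set (207057_at) read 12.0 and 14.9 in control and 14.6 and 13.1 in knockdown. The groups overlapped, and the control arrays alone spanned both knockdown values. The means were 13.5 ± 2.05 and 13.8 ± 1.10, with a log2 difference of 0.019 (SE 0.11, 95% interval -0.25 to 0.28, adjusted p = 0.961). At 2 further probe sets the control means were 12.5 and 10.1 and the knockdown means 12.2 and 10.5. The remaining ones read 8.72 against 9.86 and 3.69 against 6.12, the last being too dim to be tested. Arrays of the groups overlapped at all 5 SLC16A7 probe sets. One of them (241866_at) went from 15.9 on control replicate 1 to 4.17 on control replicate 2, a wider gap than between the groups at any SLC16A7 probe set. With a mean intensity over all 4 arrays of 13.6 at best, these probe sets may not detect a change of SLC16A7.

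LDHA was among the brightest probe sets of the arrays, at the percentile 99.7 of mean signal. It read 2819 and 2804 in control and 2712 and 2768 in knockdown. The knockdown arrays lay below the controls by a narrow margin, with means of 2812 ± 10.2 and 2740 ± 39.5, or 97.4% of control. The log2 difference was -0.037 (SE 0.11, 95% interval -0.29 to 0.21, adjusted p = 0.909). A second fit, in which the expected variance follows mean intensity (the intensity-trend fit), gave bright probe sets narrower intervals, here -0.13 to 0.057 with an adjusted p of 0.753. On that fit the interval for LDHA spans folds from 0.913 to 1.04.

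LDHB, the subunit of the reverse step, was as bright. Its probe set 213564_x_at read 2738 and 2759 in control and 2799 and 2599 in knockdown. Its other probe set (201030_x_at) read 2686 and 2760 in control and 2724 and 2599 in knockdown. The groups overlapped at both: knockdown replicate 2 lay below the controls, and replicate 1 lay above them at the first probe set and between them at the second. The log2 differences were -0.027 (95% interval -0.28 to 0.23, adjusted p = 0.938) and -0.033 (-0.28 to 0.22, adjusted p = 0.923). The intensity-trend fit gave -0.13 to 0.074 and -0.13 to 0.065. The suffix of both LDHB probe sets (x_at) marks designs that may pick up similar sequences, so their level may include other transcripts.

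**Figure D2:**
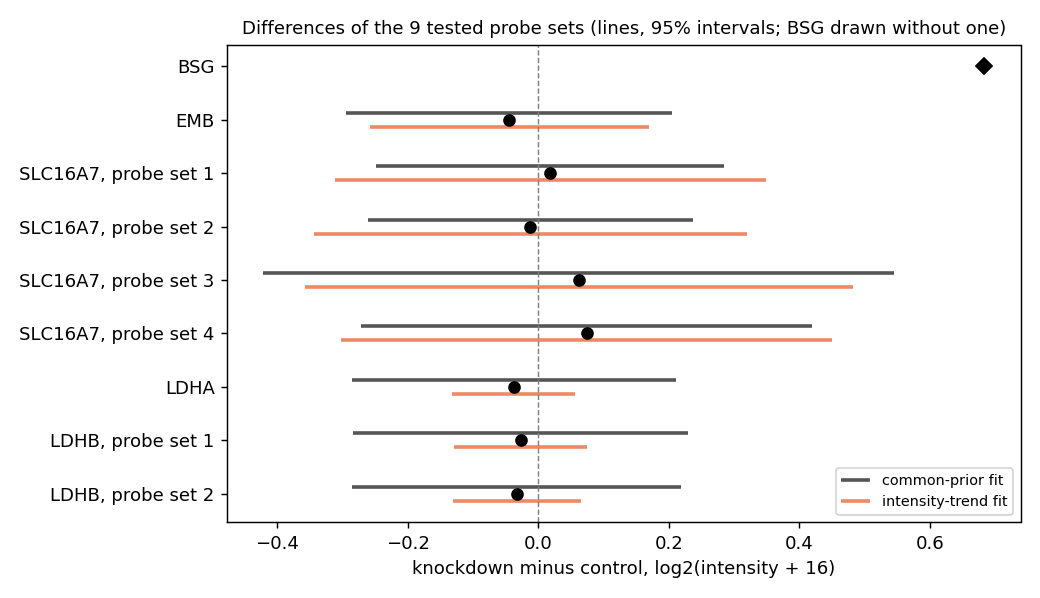
Difference of log2(intensity + 16) between knockdown and control (x axis) for the 9 tested probe sets (y axis), as points, with 95% intervals of the common-prior fit in grey and of the intensity-trend fit in orange. BSG (diamond, 0.68) carries no interval because it was chosen for this value, and the intervals of the other 8 probe sets all include 0.

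Apart from BSG, 8 of 10 probe sets could be tested and 0 passed limma in either fit at an adjusted p of 0.05. None reached an unadjusted p of 0.05 in either fit. Their adjusted p-values ran from 0.863 to 0.974 in the common-prior fit and from 0.753 to 0.985 in the intensity-trend fit. Over all tested probe sets, the common-prior fit called 0.00732% (2 of 27307, 0 higher and 2 lower) and the intensity-trend fit 2.16% (353 or 1.29% higher, and 238 or 0.872% lower). An unadjusted p under 0.05 was reached by 13.3% in the common-prior fit, 6.66% higher and 6.65% lower, and by 4391 of 27307 in the intensity-trend fit. The 8 member probe sets are too few to tell 0 from these shares. The median log2 difference of the 8 was -0.020, against -0.0037 over all tested probe sets. The groups did not overlap at 2 of the 8, EMB and LDHA, both lower as deposited but at 0.013 and 0.020 after median centring of the arrays, while both knockdown arrays lay below both controls at 22.8% of all tested probe sets and above at 23.3%, or 46.1% without overlap in all. The higher signal of BSG thus stood beside levels of EMB, LDHA and LDHB whose differences lay within the error of 2 arrays a group.

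The signal of the targeted locus was lower where the labels say it was targeted. PIERCE2, the gene to which the vector name sh.FLJ27352 corresponds by general knowledge, read 880 and 947 in control and 621 and 590 in knockdown, or 66.3% of control. It passed the intensity-trend fit (adjusted p = 0.000141) but not the common-prior fit (0.273). Array means lay between 53.3 and 54.6, and the log2 values of any pair of arrays correlated at 0.979 to 0.987 across probe sets, which are not independent. Array medians were lower in knockdown, at 8.37 and 8.12 against 9.17 and 9.28 in control. Of 10 genes marking Hodgkin cell lines 9 lay above the limit for testing, among them TNFRSF8 (CD30). The summed signal of the list was 2026 to 2038 in control and 2066 to 2136 in knockdown. Within that sum FSCN1 was lower (644 and 618 against 507 and 500) and CD70 higher (237 and 241 against 295 and 311). Both passed limma's intensity-trend fit (adjusted p = 0.0170 and 0.0371) but not the common-prior fit (0.311 and 0.308). BATF3 was higher without overlap (492 and 486 against 602 and 564), past neither fit. These 3 were named after their values were seen. Markers of monocytes and macrophages summed to 141 to 143 and 132 to 137, and those of mesothelial and epithelial cells to 55.8 to 87.9 and 50.4 to 71.5. In each of these lists 2 of 9 genes lay above the limit. The T and NK cell list was higher in knockdown, at 242 to 243 against 283 to 322, with 2 of 10 genes above the limit. Most of that sum was CD3D, at 194 and 183 against 253 and 225. The dimmer CD7 (11.3 and 12.3 against 15.9 and 14.8) was also higher without overlap. So was CD2 (5.78 and 5.76 against 8.77 and 8.88). In contrast, GNLY (log2 difference -0.19) and NKG7 (-0.067) were lower without overlap, so the genes of the list had no common direction. CD2, GNLY and NKG7 were too dim to be tested. CD3E read 1.00 and 3.53 in control and 14.0 and 1.00 in knockdown, and CD8A read 2.86 or below on all arrays. The part of these signals in the BSG values was not tested. Fewer cells of a type and less RNA per cell cannot be told apart in such bulk samples.

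Basigin's known partners were examined as a list of 16 genes, of which 13 were tested at 28 probe sets. In the common-prior fit 0 probe sets passed, with 4 higher and 3 lower at an unadjusted p of 0.05, or 25.0% against 13.3% of all tested probe sets. In the intensity-trend fit 1 was higher and 1 lower, or 7.14% against 2.16%. The 4 higher ones at the unadjusted p were all probe sets of PPIB and ITGB1, and whether the list stands out was not tested. PPIB, cyclophilin B and a ligand of basigin, read 142 and 128 in control and 197 and 175 in knockdown, with no overlap. Its log2 difference was 0.42 (SE 0.12; limma adjusted p = 0.0271 with the intensity trend and 0.285 in the common-prior one). The other PPIB probe set read 42.0 and 38.4 against 53.4 and 50.2, also without overlap and not past either fit. LGALS3, which encodes the glycan-binding protein galectin-3, was dim, at 14.9 and 23.7 in control and 2.45 and 4.32 in knockdown (-0.85, and with the intensity trend an adjusted p of 0.0186). This probe set, the 1 lower call counted above, passed the limit for testing only through its control arrays. Its knockdown mean was 3.385, so the call is not taken as support for a fall. The other LGALS3 probe set was too dim to be tested (3.44 and 1.16 against 1.72 and 4.43). The PPIB call was lost in that fit without control replicate 2 (adjusted p = 0.110) or knockdown replicate 1 (0.193), and the LGALS3 call without control replicate 2 (0.119). The median log2 difference of the 28 probe sets was 0.026. At the brightest probe set of each of the 13 genes it was -0.063, with 5 above 0 and 8 below, so the sign depended on the choice of probe sets.

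Apart from PPIB and LGALS3, no gene of the list passed either fit. NPTN, neuroplastin, the third member of the basigin family, read 800 and 854 in control and 726 and 674 in knockdown (-0.24, and with the intensity trend an adjusted p of 0.0641). PPIA, cyclophilin A, read 2556 and 2419 against 2621 and 2620 (0.075, adjusted p = 0.467 there). CD44, the hyaluronan receptor, read 148 and 182 against 154 and 170 at its brightest probe set, with overlap, while another of its 8 tested probe sets read 75.6 and 80.4 against 89.9 and 103 (0.26), higher without overlap. SLC3A2, the CD98 heavy chain, read 40.1 and 37.6 against 35.3 and 37.6. MCAM, a melanoma adhesion molecule, read 26.9 and 21.4 against 11.8 and 15.98 (-0.43), and XKR8, a lipid scramblase, 22.7 and 14.0 against 7.72 and 11.7 (-0.41). ITGB1, integrin beta 1, read 304 and 323 against 310 and 285 at its brightest probe set (-0.074) and 64.4 and 59.0 against 86.3 and 77.5 at another (0.33). These 7 genes were named after their values were seen. Among matrix metalloproteinases and their inhibitors 6 of 10 genes were tested at 8 probe sets. Here 0 passed either fit, against 0.00732% (common-prior) and 2.16% (intensity-trend) of all tested probe sets. At an unadjusted p of 0.05 in the common-prior fit 0 passed, against 13.3%, and 8 probe sets are too few to tell 0 from these shares. MMP14, the membrane-type metalloproteinase, had the largest difference among the tested probe sets, 0.25, from 12.1 and 4.07 to 19.9 and 6.23, so that the arrays within a group differed more than the groups. Its control mean, 8.09, lay below the limit for testing (an intensity of 8.26). Its other probe sets gave 0.071, and -0.29 and -0.10 where it was too dim to be tested.

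Upstream of lactate, the list of glucose entry and glycolysis had 21 of 23 genes tested at 40 probe sets. In the common-prior fit 0 passed (4 higher and 2 lower at an unadjusted p of 0.05, or 15% against 13.3% of all), and in the intensity-trend fit 3 were higher and 2 lower, or 12.5% against 2.16% of all tested probe sets. That fit gives bright probe sets narrower intervals and many of this list are bright, so these 2 shares are not from probe sets of like brightness. Whether the list stands out was not tested. SLC2A6, a glucose transporter, read 54.3 and 58.1 in control and 92.4 and 74.99 in knockdown (0.46, adjusted p = 0.0469). PKM, pyruvate kinase, which makes the pyruvate that LDHA uses, read 859 and 985 against 1091 and 1131 (0.27, adjusted p = 0.0405). PFKFB3, an activator of phosphofructokinase, was on the low side, at 47.9 and 40.3 against 25.7 and 17.4 (-0.68, adjusted p = 0.0209). None of these 3 pairs of groups overlapped. The adjusted p-values of single genes in this paragraph are from limma's intensity-trend fit. In the common-prior fit they were 0.2846 for SLC2A6, 0.3838 for PKM and 0.2835 for PFKFB3. The remaining 2 calls were probe sets of PGK1, named after its values were seen, and they pointed in opposite directions. One read 572 and 691 in control and 823 and 808 in knockdown (0.37), the other 699 and 702 against 553 and 536 (-0.35), and the brightest PGK1 probe set gave -0.12 without a call. The second PGK1 call was kept with any 1 array left out, and the first was lost without control replicate 1 (adjusted p = 0.0881). SLC2A6 was lost with any 1 array left out (0.0542 to 0.385), and PKM and PFKFB3 were lost without control replicate 1 (0.188 and 0.0785) or knockdown replicate 2 (0.155 and 0.226). The median of the 40 probe sets was 0.014.

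The fate of pyruvate was read at 29 probe sets of 15 genes. In the common-prior fit 0 passed (0 higher and 1 lower at an unadjusted p of 0.05, or 3.45% against 13.3% of all tested probe sets), and in the intensity-trend fit 1 was lower, or 3.45% against 2.16%. PDK1, the kinase that shuts pyruvate dehydrogenase and so spares pyruvate for lactate, read 219 and 264 in control and 183 and 182 in knockdown (-0.37). Its limma adjusted p was 0.0422 in the intensity-trend fit and 0.311 in the common-prior fit. The call was kept without control replicate 1 and lost without any other single array (0.0765 to 0.208). A dim second probe set of PDK1 read 25.3 and 16.9 against 21.1 and 24.4. Of the 15 genes, 11 lay below 0 and 4 above at their brightest probe set, with a median of -0.13, while the median of all 29 probe sets was 0.026. The sign of the list thus differed between the choice of probe sets.

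Other monocarboxylate carriers were dim. Of 14 listed genes 9 had a probe set annotated to them alone and 3 were tested, at 4 probe sets. Past either fit were 0, against 0.00732% (common-prior) and 2.16% (intensity-trend) of all tested probe sets. At an unadjusted p of 0.05 in the common-prior fit there were 0, against 13.3%, and 4 probe sets are too few to tell 0 from these shares. SLC16A5 had the largest difference, from 14.5 and 9.48 to 5.87 and 8.18 (-0.28, adjusted p = 0.408). Its knockdown mean, 7.025, lay below the limit for testing. SLC16A9, a carnitine efflux carrier named after its values were seen, read 82.6 and 77.3 against 70.8 and 78.1, with overlap.

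Genes that handle the acid exported with lactate were tested at 21 probe sets of 12 genes. In either fit 0 were called, against 0.00732% (common-prior) and 2.16% (intensity-trend) of all tested probe sets. At an unadjusted p of 0.05 in the common-prior fit 3 were higher and 5 lower, or 38.1% against 13.3% of all tested probe sets. Whether the list stands out was not tested. SLC4A5, a sodium bicarbonate cotransporter, had the largest difference, from 9.35 and 4.43 to 17.4 and 21.2 (0.63, and with the intensity trend an adjusted p of 0.0590). That probe set was dim in control, with a mean of 6.89. The other SLC4A5 probe sets were too dim to be tested and overlapped (0.0088 and 0.011). Regulators of lactate genes gave 0 calls in either fit at 24 probe sets of 14 genes, with 1 higher and 1 lower at an unadjusted p of 0.05 in the common-prior fit, or 8.33% against 13.3%. HIF1AN, the asparagine hydroxylase that restrains HIF1A, had the largest difference among brightest probe sets, from 18.5 and 27.2 to 29.3 and 35.7 (0.33). Its dimmer probe sets gave 0.43 and -0.096. HIF1A read 323 and 387 against 390 and 377, and MYC, an activator of LDHA, 267 and 268 against 255 and 225 (-0.15, adjusted p = 0.594), both named after their values were seen.

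**Figure D3:**
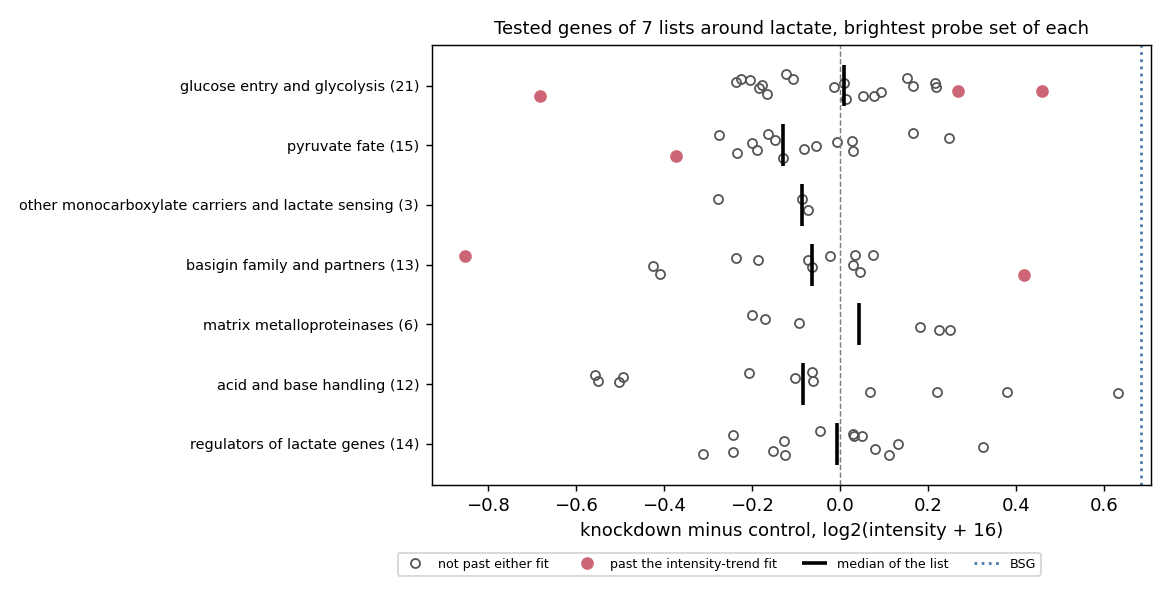
Difference of log2(intensity + 16) between knockdown and control (x axis) for the tested genes of 7 lists (y axis, number of genes in brackets), each at its brightest probe set. Filled points passed the intensity-trend fit, black bars are list medians, and the dotted line marks BSG (0.68), above which no tested gene of the lists lies.

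The controls were not alike in part of this pathway. HK2, hexokinase, read 538 and 674 in control against 514 and 512 in knockdown, and MXI1, a MYC antagonist known to respond to hypoxia, 262 and 374 against 263 and 261, so that control replicate 2 stood alone at both (named after their values were seen). PDK1 had the same order in control. LDHA did not follow, with a log2 difference of 0.0073 between its control arrays, nor did BSG, whose higher control was replicate 1.

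By the distance between log2 values centred on each probe set's mean over the 4 arrays, the probe sets most like BSG among 22638 others with 1 gene were those of RASSF4, SPATC1L, CYP4X1, GALNT2 and TCTN3. Their distances ran from 0.047 to 0.062. RASSF4 read 36.5 and 31.8 in control and 65.7 and 62.8 in knockdown. GALNT2, an enzyme that starts mucin-type O-glycans, read 36.0 and 33.2 against 62.6 and 63.3. With 4 arrays in 2 groups, a like pattern means a like difference between groups and close replicates, and no more.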

How the data were processed

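The authors deposited linear intensities of 54613 probe sets on 4 arrays. Their summary and scaling of the scans are not given in the sources used here. Array means were alike while quartiles differed, with medians of 9.17 and 9.28 in control and 8.37 and 8.12 in knockdown. Values stop at a floor of 1. Per the labels, biotin-marked cRNA was made with the usual Affymetrix steps. Genes were named through the platform annotation (41091 probe sets with 1 gene, 1801 with several, 11721 with none), using those with 1 gene.

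Intensities were turned into log2(intensity + 16) and fitted in limma 3.58.1 (R 4.3.3, lmFit and eBayes with 1 prior variance, the common-prior fit) on the 27307 probe sets whose mean was at or above the median of all (4.60, an intensity of 8.26), with Benjamini-Hochberg adjustment over them and a threshold of 0.05. The intensity-trend fit lets the prior follow brightness. Every probe set is a row, since the members are probe sets. Unless another fit is named, a p is from the common-prior fit. Intervals are at 95%.

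The members and lists were chosen with earlier results of these data known. Named from each list are up to 3 genes a direction past either fit, or else the gene of largest difference; exceptions are marked. Alternatives were other priors, filters, scalings, pseudocounts of 1 and 64, 1 value per gene, a threshold of 0.10, a replicate block and leaving out each array. The scripts were tested on simulated data. The number of arrays limits the precision. Promoter windows are RefSeq's, GRCh38.p14.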

Additional observations from a re-analysis of the deposited data

How the results depend on the processing

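BSG stayed higher in knockdown under every alternative run, with log2 differences of 0.65 (quantile normalization), 0.74 (median centring), 0.765 and 0.51 (pseudocounts of 1 and 64) and 0.65 to 0.72 with single arrays left out. Since BSG was chosen for its rise on these same arrays, the kept sign adds no support, and only the size is described. The other members gave 0 calls under every alternative. Their small differences changed sign in places: with median centring, EMB stood at 0.013, LDHA at 0.020 and LDHB at 0.030, and with the mean of its probe sets EMB stood at 0.031. With single arrays left out, SLC16A7 ran from -0.053 (without control replicate 1) to 0.090 and was -0.019 without knockdown replicate 1, and LDHB ran from -0.080 to 0.026 (without knockdown replicate 2). None was called, so these signs carry no direction.

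Over all probe sets, limma's common-prior fit called 2, against 591 with the intensity trend, 62 with the stricter filter, 663 with a pseudocount of 64, 1 after averaging the probe sets of each gene, 0 with no filter (5110 at an unadjusted p of 0.05) and 0 with a pseudocount of 1 (3047), and 0 to 3 with single arrays left out. The lists gave 0, against 8 with the intensity trend and 7 with a pseudocount of 64. The cause was not tested. The numbered replicates share only a number: the deviations of same-numbered arrays correlated at -0.014. A replicate block gave 2 calls in the common-prior fit, and 1462 in place of 591 with the intensity trend, 23 in place of 8 in the lists. Alternatives of the intensity-trend fit were chosen after seeing the data: with single arrays left out it called 195 to 563 probe sets, and 4 to 11 in the lists, with 209 higher and 305 lower without knockdown replicate 1 and the lowest counts without knockdown replicate 2.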

Other observations

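The acid and base list had differences on both sides, and 0 of its 21 tested probe sets passed either limma fit. Both knockdown arrays lay below both controls at 9 of them (42.9%, against 22.8% of all tested probe sets) and above at 5 (23.8%, against 23.3%). The 5 include the SLC4A5 probe set and a dim ATP6V1A one that passed the limit for testing only through their knockdown arrays. On the low side, SLC4A4 read 37.0 and 61.5 in control and 32.9 and 22.8 in knockdown (-0.56), its other probe sets being too dim to be tested. CA2, a cytosolic carbonic anhydrase, read 36.7 and 45.5 in control and 25.4 and 22.9 in knockdown (-0.50). CA13 read 29.6 and 29.3 against 20.3 and 12.7 at its brighter probe set (-0.49), with overlap at the other. SLC4A8, a bicarbonate exchanger, read 25.3 and 27.8 against 12.3 and 13.8 (-0.55), with overlap at its 2 other tested probe sets. On the high side, besides SLC4A5 (0.63), ATP6V1B2, a subunit of the vacuolar proton pump, read 58.0 and 57.2 against 82.5 and 77.1 (0.38), and ATP6V1A 108 and 106 against 118 and 137 (0.22). ATP6V0A1, another subunit, gave -0.061 with overlap and -0.075 without. SLC4A2, an anion exchanger, overlapped (0.067), and the tested probe sets of CA12 gave -0.10 and 0.085. These genes were named after their values were seen.

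SLC16A1-AS1, the antisense RNA of the MCT1 gene, was dim at its 3 probe sets. They read 1.62 and 1.75 against 4.37 and 8.03, 9.38 and 9.88 against 7.87 and 6.94, and 3.70 and 9.64 against 7.92 and 6.25, so the probe sets had no common direction.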
